A study of Homo sapiens with 4 samples.

Results

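The strong constitutive c-Jun peaks are the sites that stood near the top of the c-Jun peak lists both with and without TNFalpha. The cells were BT549, a human cell line established from a triple-negative breast cancer, profiled by ChIP-seq after overnight serum starvation. ChIP-seq recovers crosslinked DNA fragments with an antibody and sequences them, so that a peak marks a place where the antibody's target was enriched. A peak called against the IgG library that overlapped a peak of the same library called against input by at least 1 bp was kept as a both-control peak. Of 4159 both-control peaks with TNFalpha, 833 lay in the top 20% by the authors' peak score against IgG. Of 3086 without TNFalpha, 617 did. The set described here is the 357 peaks with TNFalpha that were in the top 20% and overlapped a top 20% peak of the library without TNFalpha, 8.58% of all both-control peaks with TNFalpha. They matched 359 top 20% peaks of the library without TNFalpha, because some covered more than 1 of them. The members were chosen by their scores and their overlap between the libraries, so both are given below as a description.

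The series held 4 libraries. One c-Jun library came from cells given TNFalpha, an inflammatory cytokine, and the other from cells without it. The sample labels give the exposure as 6 hours and the series text as 3 hours. The IgG and input libraries, which served as controls for both c-Jun libraries, both came from cells given TNFalpha. Each condition was 1 library of 1 cell line, so no difference between conditions has a replicate check and no test was made. Read depth is unknown. Intervals beside shares are 95% Wilson intervals. They take each peak as independent and hold counting error alone.

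c-Jun belongs to AP-1, a family of dimeric transcription factors assembled from proteins of the Jun, Fos and ATF families. TNFalpha signals through kinases that include JNK, which phosphorylates c-Jun, and AP-1 already occupies many of its sites in cells without such a stimulus. AP-1 sites often lie in enhancers far from gene starts. Peaks are named by their hg19 coordinates, counted from 1. Genes, motifs and sequence at the peaks were not analysed here.

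Most of the strongest c-Jun sites were found strong in both libraries. Without TNFalpha, the 10 highest scoring peaks, 49 of the first 50 and 93 of the first 100 belonged to the set. With TNFalpha, the corresponding numbers were 10, 39 and 71. Over the whole top 20%, the set held 58.2% of the strong peaks without TNFalpha (54.3 to 62.0%) and 42.9% of the strong peaks with it (39.5 to 46.2%).

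The strong peaks outside the set fell into different classes in the 2 libraries. Of the 833 strong peaks with TNFalpha, 280 overlapped a both-control peak below the top 20% without TNFalpha. Another 70 (8.40%) overlapped a peak called there against 1 control only, and 126 (15.1%) overlapped none. Of the 617 strong peaks without TNFalpha, 229 overlapped a weaker both-control peak with TNFalpha. Another 16 (2.59%) overlapped a peak called against 1 control only, and 13 (2.11%) overlapped none. A strong site without TNFalpha was therefore a both-control peak with TNFalpha in 95.3% of cases (93.3 to 96.7%), and the share in the other direction was 76.5% (73.5 to 79.2%). Over all both-control peaks, strong or not, these shares were 66.9% and 49.5%. Peaks that overlapped none made up 20.1% of all both-control peaks without TNFalpha and 35.9% of those with it. The list with TNFalpha was the longer, so its top 20% held more peaks. The part of list length in these differences was not tested.

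**Figure D1:**
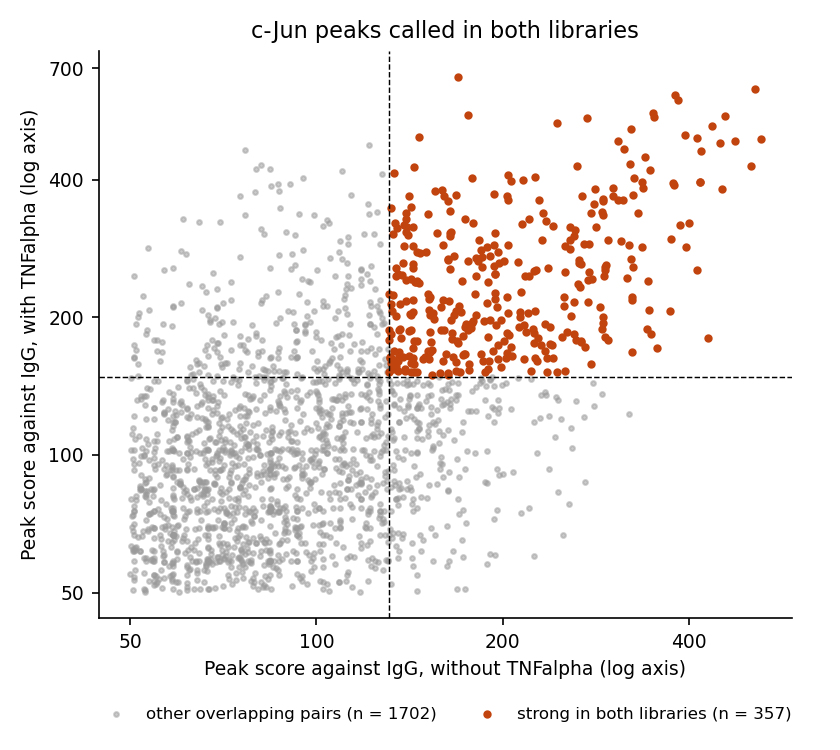
Each point is a both-control peak with TNFalpha and the highest scoring both-control peak it overlapped without TNFalpha, placed by the authors' scores against IgG in the 2 libraries on log axes. Orange points are the 357 strong constitutive peaks, and dashed lines mark the lowest scores inside the top 20%, 131 without TNFalpha and 148 with it; the orange points fill the field above and to the right of both lines.

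Inside the set the scores ranged from 149.3 to 672.0 with TNFalpha, with a median of 225. The matched peaks ranged from 131 to 522 without TNFalpha, with a median of 194. The score is the caller's own value on a scale that the sources used here do not state. The values of the libraries therefore stand side by side and are not subtracted. The order of the sites was only partly shared. Spearman's rho between the scores was 0.36 over the 357 peaks, and 0.47 over all 2059 overlapping both-control pairs. The pairs share the IgG library as control, and the set leaves out low scores, so both values are descriptions.

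The limits of the set cut through a continuous range. With TNFalpha, the lowest score inside the top 20% was 148.22 and the highest outside was 148.18. Without TNFalpha they were 130.99 and 130.97. The member with the lowest score with TNFalpha lay at chr9:75764299-75764735, with 149.3 with TNFalpha and 163 without it. The member with the lowest score without TNFalpha lay at chr3:23727273-23728037, with 131 without TNFalpha and 188 with it. Just outside were a peak at chr8:102500777-102501430, with 147.7 with TNFalpha, and a peak of the library without TNFalpha at chr11:67141477-67142112, with 131. Both overlapped a strong peak of the other library.

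Sites were next ordered by the lower of their relative ranks in the 2 libraries (rank as a share of the list), which puts first those that stood high in both. The first lay at chr10:37777874-37778995. It had rank 2 of 4159 with TNFalpha (score 632) and rank 2 of 3086 without it (score 512). It was 1122 bp wide with TNFalpha and 1046 bp wide without it, its centres differed by 5 bp, and its nearest other both-control peak with TNFalpha was 764 kb away. The site was thus found at nearly the same position and width in both libraries, with no other peak nearby.

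The second lay at chr1:7461790-7462450, with rank 7 with TNFalpha (score 550.1) and rank 5 without it (score 457). The third lay at chrX:140499452-140500680, with rank 11 (score 524) and rank 8 (score 435). A peak at chr7:32202617-32203593 had rank 16 with TNFalpha (score 489.9) and rank 1 without it (score 522). That peak was the highest scoring both-control peak of the library without TNFalpha.

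The other peaks among the first 10 had ranks from 4 to 24 with TNFalpha and from 4 to 19 without it. They lay at chr20:48781947-48783046, at chr9:16704757-16705690, at chr6:2630513-2631703 and at chr3:73835225-73836115. Those on chromosome 8 ran from 128865903 to 128867052 and from 8394844 to 8395813. The first 10 were 661 to 1229 bp wide with TNFalpha, and 7 of them had no other both-control peak within 50 kb in that library. Those with a neighbour with TNFalpha were on chromosome 20 (1 neighbour), on chromosome 3 (2 neighbours) and on chromosome 8 from 128865903 (1 neighbour). The 4 neighbours were found only with TNFalpha.

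Other members stood high in 1 library and near the limit in the other. The peak at chr11:47968362-47969027 had a score of 413 and rank 35 of 4159 with TNFalpha, against 133 and rank 587 of 3086 without it. The peak at chr12:26427367-26428202 had a score of 346 and rank 85 with TNFalpha, against 132 and rank 603 without it. The opposite order was seen at chr6:140858813-140859318, with 152 and rank 797 with TNFalpha, against 244 and rank 125 without it. It was also seen at chr4:153511352-153512178, with 152 and rank 778 with TNFalpha, against 252 and rank 115 without it. Membership alone therefore covers sites whose standing in the 2 lists was far from equal.

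The strong constitutive peaks were wider than the general run of peaks. Their median width with TNFalpha was 655 bp (interquartile range 531 to 830 bp, range 338 to 1408 bp), against 434 bp over all both-control peaks. The 476 other strong peaks with TNFalpha had a median of 634.5 bp. The 95% intervals of these medians from order statistics overlapped, 636 to 680 bp for members and 611 to 656 bp for the other strong peaks. Without TNFalpha, the matched peaks had a median of 585 bp (488.5 to 709.5 bp), against 396.5 bp over all both-control peaks and 522 bp for the 258 other strong peaks. There the 95% intervals of the medians did not overlap, 564 to 608 bp for matched peaks and 501 to 553 bp for the other strong peaks. Width moved with score, with a Spearman's rho of 0.51 over the 357 peaks and 0.66 over all 4159. Members had the higher scores, with a median of 225 against 187 for the other strong peaks with TNFalpha, and 194 against 155 without it. The part of score in the width differences was not tested.

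**Figure D2:**
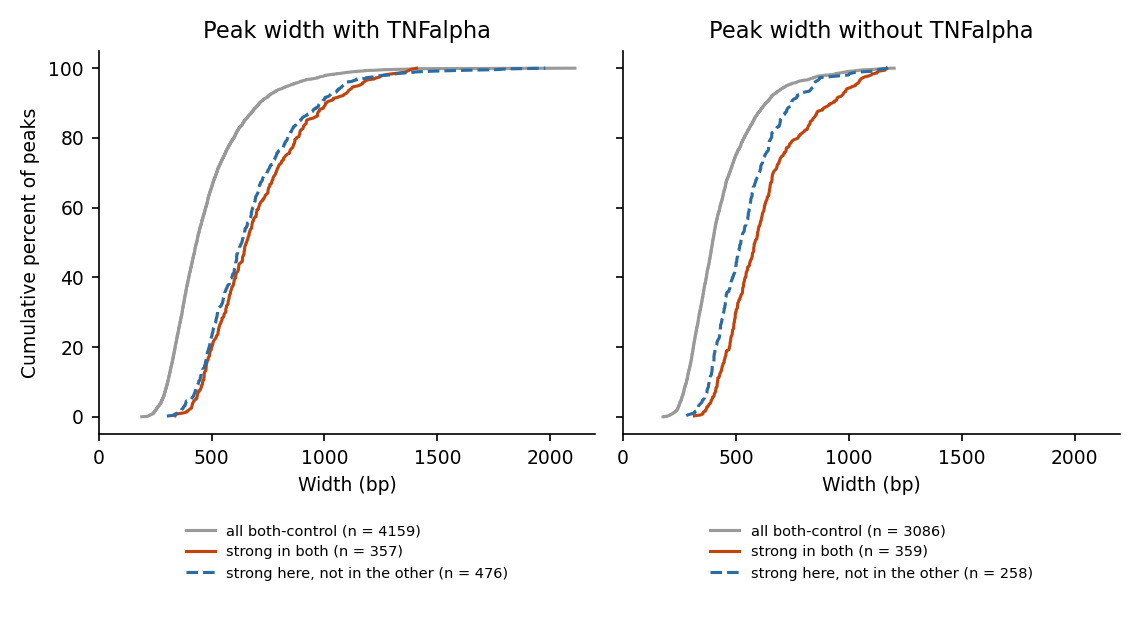
Cumulative percent of peaks by width in bp, with TNFalpha (left) and without it (right), for all both-control peaks, for peaks strong in both libraries and for peaks strong in that library and not in the other. The strong groups lie to the right of all both-control peaks in both panels, with medians of 655 and 634.5 bp against 434 bp on the left and of 585 and 522 bp against 396.5 bp on the right.

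At the same site, the peak was more often wider with TNFalpha than without it. It was wider with TNFalpha at 248 of 357 sites (69.5%, 64.5 to 74.0%), narrower at 106 and equal at 3. Over all overlapping both-control pairs, 63.6% were wider with TNFalpha. The median ratio of widths was 1.10 over the members and 1.09 over all pairs. Peaks at least 1.5 times wider with TNFalpha made up 39 of 357 (10.9%, 8.09 to 14.6%), against 15.2% of all pairs. In the opposite direction they made up 8 of 357 (2.24%, 1.14 to 4.36%), against 4.32%.

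The size of the width difference varied with the scores by which peaks were grouped. Among the 119 members with the highest scores with TNFalpha, the median widths were 818 bp with it and 641 bp without it. Among the 119 with the highest scores without TNFalpha, they were 718 bp and 663 bp. The 119 with the lowest scores with TNFalpha had medians of 563 bp with it and 540 bp without it. For the 119 with the lowest scores without TNFalpha, the medians were 620 bp and 501 bp. Both groupings gave the larger median with TNFalpha. The groups were formed by the scores that chose the set, and width moved with score, so these medians are a description. They have no comparison over all pairs.

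Among the widest members was the peak at chr8:142163178-142164585, 1408 bp wide with a score of 426 with TNFalpha. Without TNFalpha it corresponded to 2 peaks, of which the higher scoring was 579 bp wide with a score of 144. The peak at chr8:109131783-109133170 was 1388 bp wide with TNFalpha and also covered 2 peaks without it, the higher scoring 612 bp wide. The next widest lay at chr1:234859411-234860786, 1376 bp wide with TNFalpha and 1047 bp without it. In all, 6 members (1.68%, 0.772 to 3.62%) covered 2 both-control peaks of the library without TNFalpha. At these sites the width with TNFalpha is set beside that of the higher scoring of the 2. This count is given for members only and has no comparison over all pairs.

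The narrowest members lay at chrX:140314848-140315185 (338 bp with TNFalpha, 316 bp without), at chr18:66508157-66508495 (339 bp and 476 bp) and at chr7:19444520-19444867 (348 bp and 474 bp). Their scores with TNFalpha, 164 to 167, were close to the limit of the top 20%. The narrowest of them lay 185 kb from the X chromosome peak at chrX:140499452-140500680 in the joint order above, and each was the other's nearest both-control peak with TNFalpha.

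The positions of members differed between the libraries about as much as those of all overlapping pairs. Members had to overlap a peak of the other library, so close centres follow in part from the rule of the set. The centres of the matched peaks differed by a median of 43.5 bp (interquartile range 20 to 86 bp, highest 381.5 bp), and by at most 100 bp at 289 of 357 sites. Over all overlapping pairs the median was 42 bp (interquartile range 19.5 to 77.5 bp), so the centres of members were no closer than those of pairs in general. At 190 of the 357 sites, the shorter peak lay wholly inside the longer. The smallest overlap was 51.3% of the shorter peak. The counts of 289 and 190 sites are given for members only and have no comparison over all pairs.

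The IgG and input lists gave the same edges at each both-control peak. All 357 members, and all 4159 and 3086 both-control peaks of the 2 libraries, had identical start and end positions in the 2 lists of their library. The 2 lists therefore differed in the scores of these peaks and not in their positions or widths.

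Ranking by the score against input moved a part of the members out of the top 20%. With TNFalpha, 261 of 357 members were also in the top 20% of both-control peaks by input score (73.1%, 68.3 to 77.4%). In the 476 other strong peaks the share was 67.9% (63.5 to 71.9%). It was 74.3% for the 280 of these with a weaker both-control partner and 58.7% for the 196 with no both-control partner. In both libraries together, 204 members passed by input score (57.1%, 52.0 to 62.2%), 57 passed only with TNFalpha, 35 only without it, and 61 in neither. The 2 libraries share their input control, so these numbers are not independent between libraries.

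A few members stood far lower against input than against IgG. These were singled out after their values were seen. The peak at chr8:128865903-128867052 had rank 24 against IgG and rank 1207 of the same 4159 peaks against input with TNFalpha, with scores of 462 and 208. Without TNFalpha its ranks were 10 and 758 of 3086. The lowest input ranks with TNFalpha were 3402 for the peak at chr17:25711160-25711768, 3268 at chr3:16024148-16024741 and 3078 at chr1:182991317-182991962. Their ranks against IgG were 673, 539 and 467. By contrast, the peak at chr6:2630513-2631703 held rank 5 against input in both libraries.

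The members were spread over 22 of the 23 chromosomes 1 to 22 and X and made up unequal shares of the peaks on each. The copy number of the chromosomes in these cells was not known, and its part in these shares was not tested. Chromosome 20 had the highest share, with 29 of 149 both-control peaks with TNFalpha (19.5%, 13.9 to 26.6%), followed by chromosome 8 with 53 of 350 (15.1%, 11.8 to 19.3%) and chromosome 9 with 32 of 265 (12.1%, 8.68 to 16.5%). The chromosomes whose whole interval lay below the 8.58% of all peaks were chromosome 2 with 7 of 232 (3.02%, 1.47 to 6.10%) and chromosome 12 with 3 of 117 (2.56%, 0.876 to 7.27%). Chromosomes 22 (2.33%, 1 of 43), 19 (1.92%, 1 of 52) and 18 (2.5%, 2 of 80) had lower shares on fewer peaks, with intervals that included 8.58%. Chromosome 21 had 0 of 38, which allows a share of up to 7.89% by 3 counts and of up to 9.18% by the Wilson interval. The median over 23 chromosomes was 6.74%. Chromosomes 8, 1, 5 and 9 together held 163 members, 45.7% of the set and 34.2% of all both-control peaks.

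The shares of strong peaks were also computed for each library. On chromosome 20, 32.9% of both-control peaks were in the top 20% with TNFalpha and 35.4% without it. On chromosome 8, these shares were 29.4% and 30.8%. On chromosome 2 they were 11.2% and 10.9%, and on chromosome 12 they were 12.8% and 6.73%. Of the strong peaks with TNFalpha, 42.9% were members over all chromosomes. The share was above 50% on chromosomes X (61.5% of 13), 20 (59.2% of 49), 10 (53.3% of 45) and 8 (51.5% of 103). Besides chromosome 21, with 0 of 2, it was lowest on chromosomes 19 (16.7% of 6), 12 (20% of 15), 22 (20% of 5) and 2 (26.9% of 26).

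**Figure D3:**
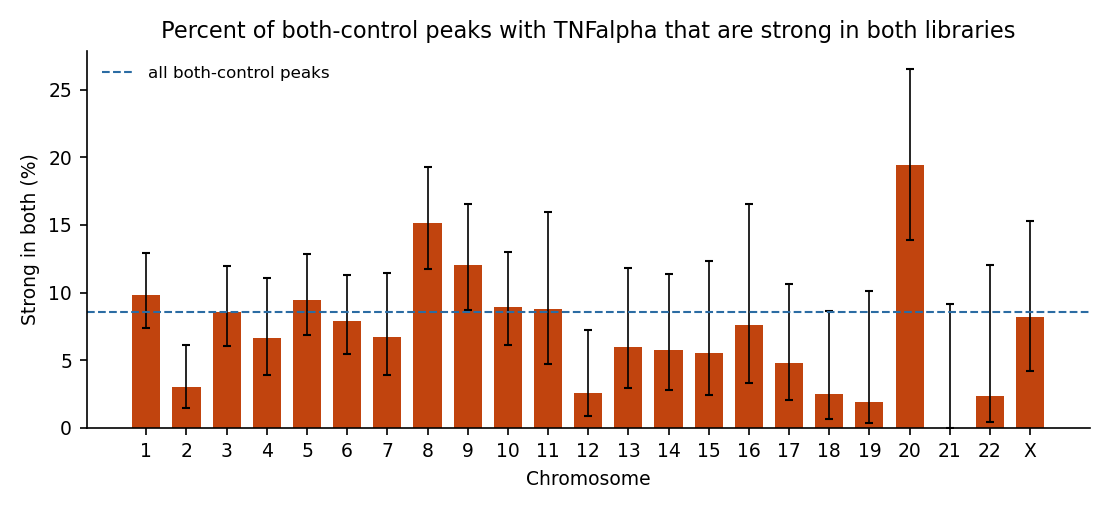
Bars give the percent of both-control peaks with TNFalpha on each chromosome that were strong in both libraries, and error bars give 95% Wilson intervals. The dashed line is the 8.58% over all chromosomes; chromosomes 20 (19.5%), 8 (15.1%) and 9 (12.1%) lie above it with their whole intervals, and chromosomes 2 (3.02%) and 12 (2.56%) lie below it with theirs.

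With TNFalpha, strong constitutive peaks had another c-Jun peak within 50 kb about as often as all both-control peaks did. Without TNFalpha they had one more often within 50 kb, and this depended on the distance chosen. With TNFalpha, 188 of 357 had another both-control peak with its centre within 50 kb (52.7%, 47.5 to 57.8%), against 48.8% of all both-control peaks. Without TNFalpha, 165 of the 359 matched peaks did (46.0%, 40.9 to 51.1%), against 36.5% of all. The interval included the share of all peaks with TNFalpha and lay above it without TNFalpha. The median distance to the nearest other peak was 41.8 kb for members and 53.9 kb for all peaks with TNFalpha, and 63.0 kb and 108 kb without it. Close companions within 2 kb were about as common for members (12.3%, 9.31 to 16.1%) as for all peaks with TNFalpha (13.4%). Without TNFalpha the share within 2 kb was 7.52% for matched peaks (5.22 to 10.7%) and 8.13% for all. Within 5 kb it was 15.0% (11.7 to 19.1%) against 13.3%, and within 20 kb 29.0% (24.5 to 33.9%) against 24.6%. The intervals at these shorter distances included the share of all peaks. Within 100 kb the share was 59.1% (53.9 to 64.0%) against 48.1%.

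The members were also set beside the other strong peaks with TNFalpha. Of the 280 strong peaks with a weaker both-control partner, 52.1% had a neighbour within 50 kb (46.3 to 57.9%). Of the 196 with no both-control partner without TNFalpha, 66.8% did (60.0 to 73.0%). Among these 196, 18.9% had 3 or more such neighbours (14.0 to 24.9%). That share was 6.16% for members (4.10 to 9.15%), near the 7.38% of all both-control peaks. For strong peaks with a weaker partner it was 6.07%. With TNFalpha, 58.2% of all 476 other strong peaks had a neighbour within 50 kb (53.7 to 62.5%), and 52.7% of members did. Without TNFalpha a neighbour within 50 kb was found for 46.0% of the matched peaks (40.9 to 51.1%). For the 258 other strong peaks the share was 38.0% (32.3 to 44.0%). The shares with 3 or more were 3.34% (1.92 to 5.75%) and 2.33% (1.07 to 4.98%), against 2.11% of all both-control peaks without TNFalpha. These differences have no replicate check and were not tested.

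**Figure D4:**
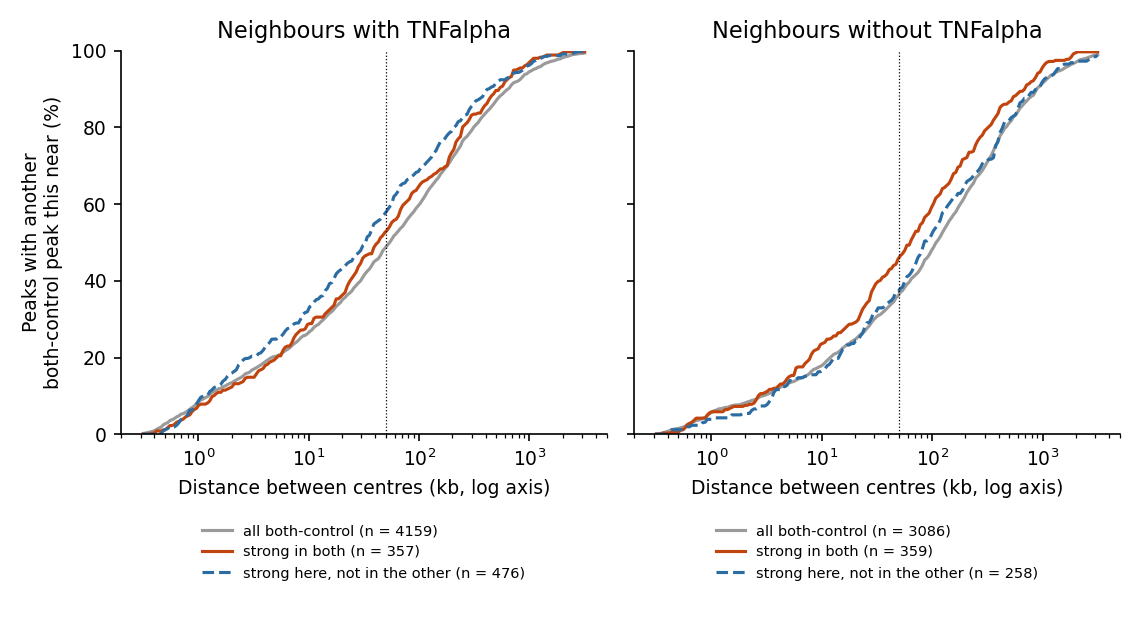
Percent of peaks whose nearest other both-control peak lay within the distance on the x axis (kb between centres, log axis), with TNFalpha (left) and without it (right); the dotted line marks 50 kb. At that line the peaks strong in both libraries reach 52.7% on the left and 46.0% on the right, against 48.8% and 36.5% of all both-control peaks.

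Peaks found only with TNFalpha, meaning those that overlapped no peak of either list without it, were counted around the members. At least 1 lay within 50 kb of 72 of 357 members (20.2%, 16.3 to 24.6%), against 24.3% of all both-control peaks, a value inside the members' interval. The share was 29.6% for strong peaks with a weaker partner (24.6 to 35.2%) and 41.8% for strong peaks with no both-control partner (35.2 to 48.8%). In the library without TNFalpha, peaks found only there lay within 50 kb of 22 of 359 matched peaks (6.13%, 4.08 to 9.10%), against 7.49% of all. Where a member had a neighbour within 50 kb, the nearest was a peak found only with TNFalpha in 53 of 188 cases (28.2%, 22.2 to 35.01%). For other both-control peaks it was 38.7% (36.5 to 41.0%).

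The number of neighbours of each member was then compared between the libraries. Leaving out peaks that overlapped the site itself, 236 of 357 had the same number of both-control neighbours within 50 kb in both libraries, 88 had more with TNFalpha and 33 had fewer. These were 66.1% (61.0 to 70.8%), 24.6% (20.5 to 29.4%) and 9.24% (6.66 to 12.7%) of the members, against 67.0%, 23.5% and 9.52% of all overlapping both-control pairs. Of all 357, 149 had none in either library (41.7%, 36.7 to 46.9%), against 47.6% of all overlapping pairs. Another 138 had at least 1 in both. Of the 208 with a neighbour in either library, 87 had the same number in both (41.8%, 35.3 to 48.6%). Over all pairs with a neighbour the share was 37.0%. The members' neighbours summed to 295 with TNFalpha, 93 of them found only with it, and to 211 without TNFalpha, 23 of them found only there. Neighbours found only in 1 library thus made up 31.5% and 10.9% of these sums, against 37.4% and 16.3% over all overlapping pairs. The list with TNFalpha was the longer, and its part in the larger sum was not tested.

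Most neighbours were counted around the member at chr4:74569948-74570951. It had 9 both-control neighbours within 50 kb with TNFalpha, of which 7 were found only with TNFalpha, and 1 without it. The member itself was called in both libraries, with a score of 276 and a width of 1004 bp with TNFalpha and a score of 147 and a width of 646 bp without it. The next was the member at chr10:3894413-3895018, with 5 neighbours with TNFalpha and 1 without it. Of the 8 members with 4 neighbours with TNFalpha, 1 had the 4 found only with TNFalpha and the others fewer, down to 1. These 8 had 0 to 3 neighbours without TNFalpha. The member with 4 found only with TNFalpha, at chr9:117618443-117618908, had 0 without it. It was called in both libraries at similar widths, 466 bp with TNFalpha and 420 bp without it, with scores of 306 and 195.

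Other members lay far from any other both-control peak with TNFalpha. The member at chr9:106994821-106995528 lay 3518 kb from the nearest other both-control peak with TNFalpha, with scores of 203 with TNFalpha and 142 without it. Without TNFalpha the nearest was 91.2 kb away, and the nearest peak of any of the 4 lists was 67.2 kb away. The member at chr19:9186061-9186707 lay 2020 kb away (scores 319 and 386), and was the only member on that chromosome. It had 1 both-control neighbour without TNFalpha, 20.4 kb away and found only in that library. A member at chr7:2797062-2797811 lay 1945 kb away (scores 205 and 143). Its nearest both-control peak without TNFalpha was 1910 kb away, and its nearest peak of any list 1852 kb away. In all, 78 of 357 members had no peak of any list within 50 kb (21.8%, 17.9 to 26.4%), against 28.2% of all both-control peaks.

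Some members lay close to each other. Another member stood within 50 kb of 40 of 357 (11.2%, 8.34 to 14.9%), and 6.80% of all both-control peaks with TNFalpha had a member that near. Of the 476 other strong peaks, 5.88% did (4.10 to 8.37%). Where a member had a neighbour within 50 kb, the nearest was itself a member in 28 of 188 cases (14.9%, 10.5 to 20.7%), against 8.74% for other both-control peaks (7.54 to 10.1%). Joining members with centres at most 50 kb apart gave 20 pairs and 0 longer runs, and 317 members stood singly. The 40 members are therefore 20 pairs counted from both sides, and their interval, which takes each peak as independent, understates the counting error. The median distance from a member to the nearest other member was 1494 kb. The closest pair lay at chr6:149353077-149353562 and from 149353697 to 149354735, with centres 896.5 bp apart. Their scores with TNFalpha were 151 and 368, and without it 158 and 160. The next pair lay at chr5:157809382-157809922 and from 157811845 to 157812602, with scores of 221 and 399.5 with TNFalpha and 153 and 216 without it. On chromosome 16 a pair from 48156932 to 48157453 and from 48160877 to 48161448 had scores of 302 and 254 with TNFalpha and 141 and 292 without it. In this pair the order of the 2 peaks differed between the libraries.

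Joined over longer distances, members formed a few loose groups. These were chosen after the data were seen. With centres at most 100 kb apart there was 1 run of 3 members, at chr9:22237729-22343081. At most 1000 kb apart, the largest run held 7 members and lay at chr9:21576211-22343081, over 767 kb. It contained 15 both-control peaks with TNFalpha, and its 7 strong peaks were all members. Without TNFalpha it contained 13 both-control peaks, of which 9 were strong, so 2 strong peaks there were not matched. They lay from 22211579 to 22212089 (score 187 without TNFalpha, 132 with it) and from 22216540 to 22217248 (132 and 52.3). The highest scoring, from 22102999 to 22103731, scored 353 with TNFalpha and 280 without it. The last, from 22342385 to 22343081, had scores of 293 and 310.1. The others had scores of 156 to 206 with TNFalpha and 134 to 225 without it.

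A run of 5 members lay at chr20:38235386-39140646 and contained 7 both-control peaks with TNFalpha, of which the 5 strong ones were the members. Without TNFalpha it held 6, and the 5 strong ones matched the members. The highest scoring, from 39135043 to 39135684, scored 404 with TNFalpha and 326 without it, and a member from 39139896 to 39140646 stood 4.91 kb from it, with 202 and 181. The widest, from 38252162 to 38253491, was 1330 bp wide with TNFalpha and 805 bp without it, with scores of 286 and 252. Near it, the member from 38235386 to 38236337 had scores of 327 and 139. The member between them and the far pair, from 38505582 to 38506553, had scores of 206 and 133.

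**Figure D5:**
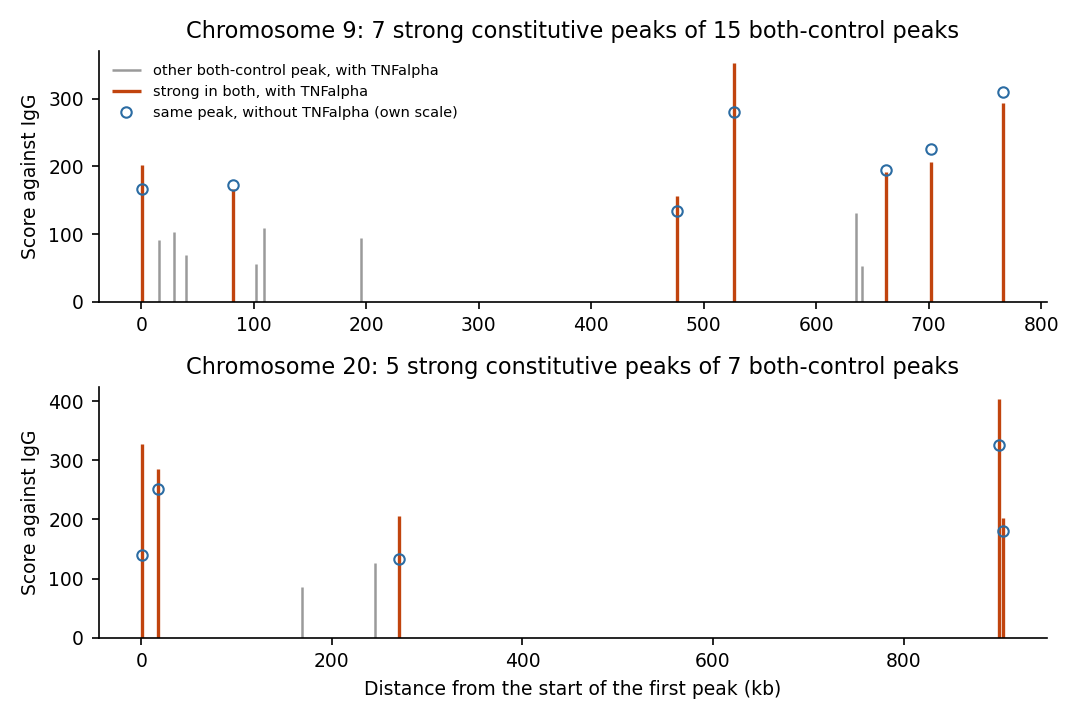
Vertical lines give the score against IgG with TNFalpha of each both-control peak in the runs of 7 members on chromosome 9 (top) and 5 members on chromosome 20 (bottom), by distance in kb from the start of the first peak. Open circles give the members' scores without TNFalpha on that library's own scale; all 7 and all 5 strong peaks with TNFalpha in these runs were also strong without it, while the chromosome 9 run held 9 strong peaks without TNFalpha, 2 of them unmatched.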

How the data were processed

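The submitters' processing notes name CASAVA 1.8, Bowtie 0.12.9 and the build hg19. The authors deposited 4 peak lists. Each c-Jun library had 1 list with IgG and 1 with input as control, per the labels. Peak names begin with MACS, and its version, threshold and treatment of duplicates are not stated in the sources used here. The deposited score of each peak comes from the authors' caller and was used here only to describe and rank peaks within a library. Depth is unknown.

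Coordinates were changed to count from 1. Ranks were taken among both-control peaks by the score against IgG, and peaks tied at the limit were kept. Neighbours exclude peaks overlapping the peak itself, and distances run between centres. The members and lists were chosen with earlier results of these data known. Named peaks are the 10 standing highest in both libraries, the 3 widest and 3 narrowest, the 3 most isolated, runs of members, peaks at the score limits, and those whose standing differed most, 2 each way. Peaks named for their input rank, closeness to another member, neighbours or loose grouping were chosen after their values were seen. Motifs, sequences, gene positions and gene lists were not analysed here, because no hg19 genome or annotation was used. Alternatives covered the score limit, score, overlap, chromosomes and distance.

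Python 3.11.15, numpy 2.4.6, pandas 2.3.3, scipy 1.17.1 and matplotlib 3.10.9 were used. Overlaps were checked against bedtools 2.31.1, and 0 of 12 counts differed. In simulated lists of 4000 peaks, 300 of 300 planted strong constitutive peaks were recovered, with 0 others.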

Additional observations from a re-analysis of the deposited data

How the results depend on the processing

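No paired analysis was possible because there was 1 library per condition. Leaving a library out was not possible either. The set held 357 peaks. It held 150 with the top 10% of each library, all of them among the 357 as the limit requires, and 461 with the top 25%. Ranking by input score gave 326 peaks, of which 204 were among the 357. Requiring the top 20% by both scores in both libraries, an alternative added after seeing the data, left the same 204. Reciprocal overlap of at least 50% left 347. The top 20% of the whole IgG list gave 382. Requiring an overlap of at least 50% between the IgG and input lists could not change the set, because the edges are identical, and it stayed at 357. The median width of 655 bp became 750.5 bp with the top 10%, and 637 bp with the top 25% or by input score. The share with a neighbour within 50 kb, 52.7%, was 36.1% within 20 kb, 64.4% within 100 kb, 70.3% when peaks of either list counted as neighbours, and 45.7% around the matched peaks, 1 per member, in the library without TNFalpha. Without chromosomes 8 and 20, also added after seeing the data, the median width was 641 bp and the share was 51.3%. Alternatives on motifs and gene bodies were not run. Unknown depth limits any statement that a peak was absent or weak in a library.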
